A study of Mus musculus with 16 samples.

Results

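This account compares ciNSLC, chemically induced neural stem-like cells derived from mouse embryonic fibroblasts, with untreated fibroblasts of the kind they were made from. Its members were taken from the labels: the 3 libraries titled ciNSLCs (replicate 1 in batch 1, replicates 2 and 3 in batch 2) and the 2 libraries of untreated cells, called D0 here (replicate 1 in batch 1, replicate 2 in batch 2), 5 of the 16 RNA-seq libraries of the series. The starting cells were tdMEFs, embryonic fibroblasts of a 129xC57BL6 background that carry Fsp1-Cre and a ROSA26 tdTomato reporter, so that cells in which the Fsp1 (S100a4) promoter was active stay marked. The D0 cells were kept in serum medium at ambient oxygen and had received no compound. The ciNSLC had been obtained with M9, a medium given at low oxygen for which the labels list no serum, and which holds bFGF, the LSD1 inhibitor Parnate, the DNA methyltransferase inhibitor RG108, SMER28, retinoic acid, the Hedgehog agonist Hh-Ag1.5, and inhibitors of the TGF-beta receptor (A83-01), the BMP receptor (LDN193189) and GSK3 (CHIR99021). The labels do not say in which medium the lines were kept when RNA was taken, or whether the 3 libraries are separate lines, so the spread behind each p-value may be technical in part. The remaining libraries are cells on days 4, 8 and 12 of treatment, which entered the same fit, and 1 library each of SCR029, a cortical neural stem cell line, and priNPC, primary cortical progenitors, whose levels are set beside some genes for scale.

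Neural stem cells of the embryo and the culture dish are held in their state by transcription factors such as Sox2 and Pax6, carry the lipid-binding protein Fabp7 and the filament protein nestin of radial glia, and divide in response to FGF. Fibroblasts instead secrete collagens and their cross-linking enzymes, contract through smooth muscle actin, and express the mesenchymal factors of the Twist, Snai and Prrx families. Hox genes, which are arranged in 4 clusters, record a position along the body: genes at the low-numbered end mark the hindbrain and neck, those at the high-numbered end the trunk, tail and distal limb, and the forebrain expresses none.

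Total counts were 55.5, 30.8 and 32.9 M (M, mega) in ciNSLC and 44.6 and 31.2 M in D0. The mitochondrial rRNA genes took 49.2%, 53% and 44.3% of them in ciNSLC and 22.6% and 14.3% in D0, which left 28.2, 14.5 and 18.3 M against 34.6 and 26.7 M other counts. Levels below are CPM, counts scaled by library size and TMM, on which 3 counts correspond to 0.0703, 0.135 and 0.103 CPM in the ciNSLC libraries and to 0.063 and 0.0788 CPM in D0. Markers of myeloid cells were high in D0 replicate 2. The summed level of 18 myeloid markers was 3.24, 3.50 and 4.04 CPM in ciNSLC and 17.8 and 4315 CPM in D0, so that nearly all of that signal lies in D0 replicate 2. The libraries also differ in sex-linked transcripts. The Y-linked helicase Ddx3y stood at 0.375, 0.628 and 19.5 CPM in ciNSLC and 60.5 and 17.8 CPM in D0, and Xist, the RNA of the inactive X, at 502, 727 and 130.4 CPM in ciNSLC and 4.03 and 367 CPM in D0. ciNSLC replicates 1 and 2 thus carried Xist and almost no Y transcripts, and ciNSLC replicate 3 and D0 replicate 2 carried both. D0 replicate 1 carried Y transcripts and little Xist, the reverse of ciNSLC replicate 1 in the same batch. The groups are therefore not matched in sex-linked transcripts, and the effect of this on other genes was not tested.

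Genes of neural stem cells and glia were mostly higher in ciNSLC, and genes of fibroblasts lower. Of 17455 genes tested, 4925 (28.2%) had a Benjamini-Hochberg adjusted p under 0.05 in the quasi-likelihood F-test of edgeR, 2048 of them higher in ciNSLC (11.7% of the genes tested) and 2877 lower (16.5%). The median log2 change was 2.60 over the genes called higher, -2.84 over those called lower and -0.07 over all genes tested. A change of at least 6 on the log2 scale was reached by 338 genes in the higher direction and 584 in the lower. Without D0 replicate 1 the count of higher genes was 1205, and without D0 replicate 2 it was 1380, while the lower genes numbered 2346 and 2046. Within batch 1, 98.8% of the called genes had the sign of the whole fit, and within batch 2, 99.9%. The calls rest on these very libraries, so the selection largely sets those shares.

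Of the 10 genes with the largest increase, 7 had no count at all in D0, so their folds are lower bounds against 3 counts over the D0 group. Dab1, the adaptor of the reelin signal that guides migrating neurons (ENSMUSG00000028519, chromosome 4, 103291964 to 104417449 in mm9), stood at 38, 52.1 and 20.4 CPM in ciNSLC and was at 0 in D0, at least 1020-fold higher. Mmd2 had 62.6, 38.5 and 5.44 CPM in ciNSLC, at least 1120-fold above D0. The serotonin-gated channel Htr3a was at least 867-fold higher, the adhesion protein Ajap1 at least 671-fold, the heparan sulfate sulfotransferase Hs3st2 at least 542-fold and the ligand Wnt7b at least 485-fold. The call of Htr3a was lost without either D0 library (adjusted p from 2.5e-05 to 0.063). Glycam1, a mucin known from lymph node vessels and mammary gland, was at least 977-fold higher over the group, but its levels were 54.5, 39.4 and 0.65 CPM, so that ciNSLC replicate 3 held almost none. Its call was lost in batch 2 alone and with limma voom (adjusted p from 5.3e-09 to 0.11 over the alternatives). The glutamate receptor Grm5 had 326, 329 and 87.7 CPM in ciNSLC against 0.021 and 0.0788 CPM in D0 (log2 change 12.26, SE 2.29, edgeR adjusted p = 0.00147). The remaining 2 of the 10 were the oligodendrocyte-lineage factors Olig1 and Olig2. Among the 10 largest decreases, 7 are genes of myeloid cells (C1qb, Ptprc, Gp49a, Arhgap30, Ctss, Laptm5 and Trem2) that had 0.021 to 0.798 CPM in D0 replicate 1 and 24.7 to 191.7 CPM in D0 replicate 2. Gp49a has a near-identical neighbour, so its reads may be split. The other 3 were high in both D0 libraries. Zcchc5 was at 0 in ciNSLC against 124 and 49.2 CPM in D0, at least 2850-fold lower. Rspo2, a secreted amplifier of Wnt signals, had 0, 0 and 0.0342 CPM against 74.5 and 92 CPM, and the interleukin-1 antagonist Il1rn 0, 0.0449 and 0.103 CPM against 84 and 246 CPM (log2 change -11.78, SE 0.79, edgeR adjusted p = 1e-06).

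The neural stem factors rose nearly as a block. Of 24 listed, 23 were found and tested, 21 were higher, Zic1 was lower and Nfib did not pass. The median log2 change was 5.55, and 17 to 20 members were called higher when a single library was left out. Sox2, which maintains neural stem cells (ENSMUSG00000074637, chromosome 3, 34548927 to 34551383 in mm9), had 57.1, 57 and 37.8 CPM in ciNSLC against 0.42 and 0.0263 CPM in D0 (log2 change 7.74, SE 1.24, edgeR adjusted p = 0.000505). Every ciNSLC library lay far above both D0 libraries, on either side of SCR029 (45 CPM) and below priNPC (98.8 CPM). Its relative Sox21 rose to 48.4, 64.6 and 48.7 CPM, against 0.063 and 0.0263 CPM in D0, and Sox3 to 3.82, 5.21 and 9.34 CPM from no count in D0, at least 167-fold. Pax6, a regulator of cortical and spinal progenitors (ENSMUSG00000027168, chromosome 2, 105509053 to 105543317 in mm9), had 10.2, 14.5 and 20.6 CPM in ciNSLC and 0.147 and 0.0525 CPM in D0 (log2 change 7.15, SE 0.74, edgeR adjusted p = 2.03e-05). The POU factors Pou3f2, Pou3f3 and Pou3f4 were also called higher, with log2 changes of 7.92, 4.55 and 4.86, the last not called without D0 replicate 1 (adjusted p = 0.12). Nes, the filament protein nestin (ENSMUSG00000004891, chromosome 3, 87775000 to 87784373 in mm9), had 374, 847 and 914 CPM against 29.6 and 18.8 CPM (log2 change 4.88, SE 0.59, edgeR adjusted p = 6.37e-05), and the receptor phosphatase Ptprz1 1406, 1755 and 611 CPM against 10.1 and 43.5 CPM. Some members with sizeable levels in D0 rose by less than the list's median. Sox9 had a log2 change of 2.01 (254, 322 and 219 against 80.5 and 50.7 CPM), the cadherin Cdh2 1.49, Nfia 1.87 and the RNA-binding protein Msi2 2.61.

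Some members of this list were called but scarce. Hes5 had 2.2, 1.57 and 1.33 CPM in ciNSLC and 0 and 0.0525 CPM in D0, and did not pass without D0 replicate 1 (adjusted p = 0.10). Nr2e1 (Tlx), a receptor needed for adult neural stem cells, had 1.36, 1.57 and 0 CPM in ciNSLC against 0 and 0.0263 CPM in D0 (edgeR adjusted p = 0.0325), beside 19.9 CPM in SCR029 and 27.1 CPM in priNPC. It was not called without either D0 library, with limma voom, in batch 2 alone or with the 5 libraries alone (adjusted p up to 0.24). Prom1 (CD133), a membrane glycoprotein of stem and progenitor cells, had 6, 7.99 and 2.91 CPM against 0.147 and 0.0788 CPM. Zic1, a factor of dorsal neural tube and somites, went the other way, with 0.586, 0.179 and 0.171 CPM in ciNSLC against 7.88 and 7.65 CPM in D0 (log2 change -4.54, SE 0.56, edgeR adjusted p = 7.9e-05), beside 32.7 CPM in SCR029 and 55.9 CPM in priNPC.

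**Figure D1:**
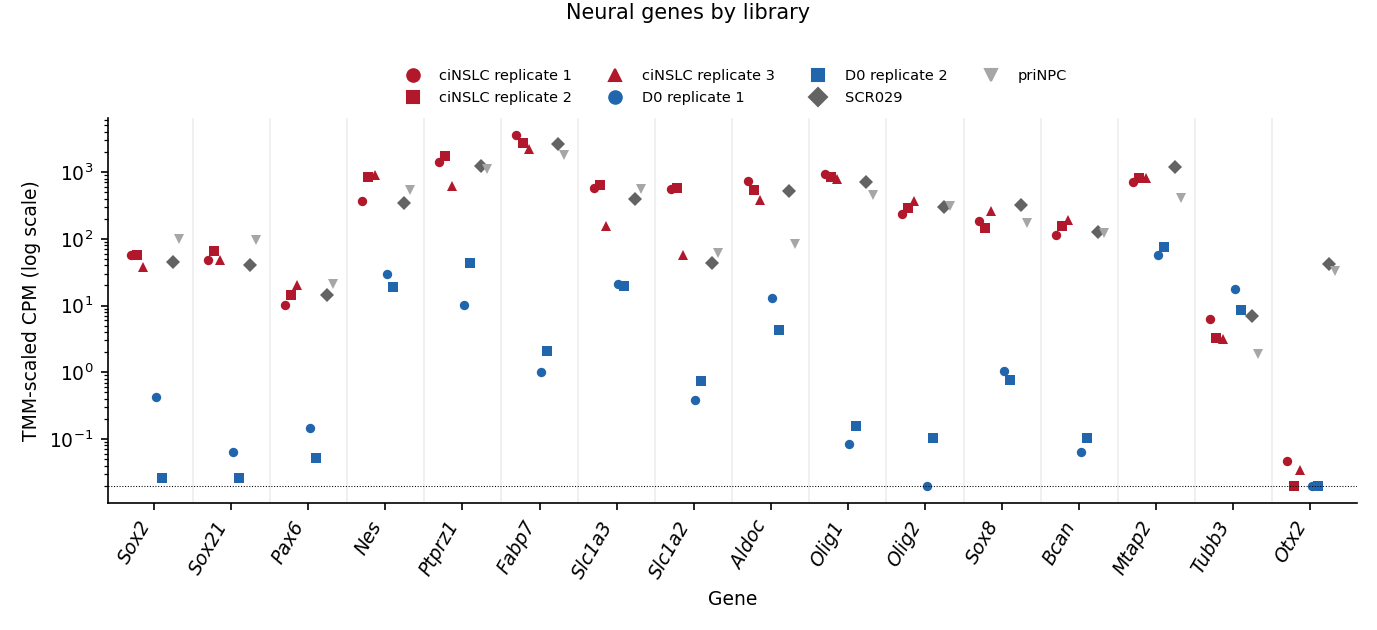
Levels of 16 neural genes in each library, as TMM-scaled CPM on a log scale, with ciNSLC in red, D0 in blue and the single SCR029 and priNPC libraries in grey. Values under 0.02 CPM are drawn on the dotted line. Most genes are high in the 3 ciNSLC libraries and the controls and low in D0, Tubb3 is not, and the forebrain factor Otx2 is high in the controls alone.

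Genes of radial glia and astrocytes rose as well: 13 of 16 tested were higher and none lower, with a median log2 change of 4.98, and 11 to 14 were higher when a library was left out. Fabp7, a fatty acid carrier of radial glia (ENSMUSG00000019874, chromosome 10, 57504687 to 57508256 in mm9), had 3557, 2734 and 2185 CPM in ciNSLC against 1.01 and 2.05 CPM in D0 (log2 change 10.85, SE 1.83, edgeR adjusted p = 0.000738). Per length, Fabp7 was also the most abundant member of the neural stem, glial, oligodendrocyte and neuronal lists in ciNSLC, at a mean FPKM (CPM per kilobase of exon) of 2260, against 1.22 in D0. The glutamate transporter Slc1a3 (GLAST) stood at 586, 635 and 156 CPM in ciNSLC, against 21.2 and 19.9 CPM in D0. Its relative Slc1a2 (GLT-1) stood at 559, 575 and 57.4 CPM in ciNSLC, against 0.378 and 0.736 CPM in D0. In both, ciNSLC replicate 3 was the lowest of the 3 and still above D0. The glycolytic enzyme Aldoc had 741, 540.0 and 379 CPM against 12.8 and 4.36 CPM (log2 change 6.01, SE 0.74, edgeR adjusted p = 7.76e-05), and the matricellular protein Sparcl1 122, 196 and 184 CPM against 3.61 and 2.26 CPM (log2 change 5.83, SE 0.76, edgeR adjusted p = 0.000118). Gfap, the astrocyte filament protein (ENSMUSG00000020932, chromosome 11, 102748650 to 102762226 in mm9), was called higher (log2 change 8.62, SE 2.29, edgeR adjusted p = 0.0128) with levels of 16.5, 14.9 and 0.0684 CPM in ciNSLC and 0.021 and 0.0263 CPM in D0. Only 2 of the 3 ciNSLC libraries therefore stood clear of D0, and the call was lost in batch 2 alone, with limma voom and without either D0 library (adjusted p from 3.8e-05 to 0.25). The gap junction protein Gja1, tenascin Tnc and clusterin did not pass. Tnc was at 1143, 1185 and 1117 CPM in ciNSLC and 764 and 1336 CPM in D0.

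In the oligodendrocyte lineage, 11 of 16 tested members were higher and 3 lower (median log2 change 4.66), with 9 or 10 higher when a library was left out. Olig1 and Olig2, which specify the lineage, had the largest changes of the list. Olig1 (ENSMUSG00000046160, chromosome 16, 91270014 to 91272184 in mm9) had 926, 841 and 791 CPM in ciNSLC against 0.084 and 0.158 CPM in D0 (log2 change 12.78, SE 2.02, edgeR adjusted p = 0.000458). Olig2 (ENSMUSG00000039830, chromosome 16, 91225795 to 91228922 in mm9) had 233, 291 and 366 CPM against 0 and 0.105 CPM (log2 change 12.51, SE 1.92, edgeR adjusted p = 0.00037). All ciNSLC libraries lay near SCR029 (297 CPM) and priNPC (309 CPM). Nkx2-2 was at least 344-fold higher, with 12.1, 11.1 and 12.8 CPM and no count in D0, Sox8 had 182, 145 and 265 CPM against 1.05 and 0.762 CPM, and the matrix proteoglycan brevican (Bcan) 114, 154 and 193 CPM against 0.063 and 0.105 CPM (log2 change 10.81, SE 1.53, edgeR adjusted p = 0.000214). Markers of the committed precursor went both ways. Lhfpl3 rose to 11.8, 6.64 and 1.44 CPM in ciNSLC, against 0.105 and 0 CPM in D0 (log2 change 6.81, SE 1.18, edgeR adjusted p = 0.000879). Gpr17 was called higher on 2.23, 2.15 and 0.239 CPM against 0.021 and 0.105 CPM, a call lost with all 16 libraries in the fit, among other settings. Sox10 was called higher on 0.844, 2.06 and 0.205 CPM in ciNSLC against 0.021 and 0.0525 CPM in D0, beside 16.9 CPM in priNPC. That call was lost without D0 replicate 1, in batch 2 alone and with all 16 libraries in the fit (adjusted p from 0.00049 to 0.089). Pdgfra, the PDGF receptor shared by oligodendrocyte precursors and fibroblasts, was lower at 6.17, 4.53 and 7.39 CPM against 289 and 163 CPM (log2 change -5.23, SE 0.32, edgeR adjusted p = 5.99e-07). The proteoglycan Cspg4 (NG2) was lower too, at 19.9, 27.7 and 28.2 CPM against 53 and 58.8 CPM, beside 19.3 CPM in SCR029 and 83.4 CPM in priNPC. Cspg4 did not pass without either D0 library, without ciNSLC replicate 1 or with all 16 libraries (adjusted p up to 0.093). Myelin genes stayed scarce. Mog and Mag had no count in ciNSLC, and Mbp was called lower on levels of 0.727, 0.135 and 0.547 CPM in ciNSLC against 0.735 and 9.67 CPM in D0. That call rested on D0 replicate 2 and was lost without it (adjusted p from 0.00047 to 0.66).

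Neuronal genes went both ways. Of 20 tested, 7 were higher, 3 lower and 10 did not pass, beside 11.7% higher and 16.5% lower over all genes tested. Lower calls were thus no more frequent than over all genes. The median log2 change was 1.52, or 1.28 with genes at 0 in a group set to their bound. Mtap2 (Map2), a microtubule protein of dendrites that neural progenitors also transcribe, had 712, 804 and 828 CPM in ciNSLC against 57.1 and 75.6 CPM in D0 (log2 change 3.56, SE 0.76, edgeR adjusted p = 0.00371). Dcx, a protein of migrating neuroblasts, had 8.72, 11.8 and 38.8 CPM against 2.29 and 0.368 CPM (log2 change 3.88, SE 1.04, edgeR adjusted p = 0.0136), and did not pass without D0 replicate 2 or with all 16 libraries in the fit (adjusted p up to 0.10). Elavl4 (7.06, 6.55 and 4.07 against 0.42 and 0.447 CPM), Syp (3.21, 6.69 and 8.48 against 0.147 and 0.631 CPM) and Snap25 (2.37, 3.37 and 0.376 against 0.084 and 0 CPM) rose to low levels. The neuronal tubulin Tubb3 (ENSMUSG00000062380, chromosome 8, 125935324 to 125945915 in mm9) was instead lower, at 6.33, 3.28 and 3.18 CPM in ciNSLC against 17.8 and 8.49 CPM in D0 (log2 change -1.62, SE 0.41, edgeR adjusted p = 0.00988), although without D0 replicate 1 or ciNSLC replicate 2 it no longer passed (adjusted p from 0.0013 to 0.18). Stmn2 fell to 1.38, 1.44 and 0.0342 CPM, against 21.4 and 6.67 CPM in D0. Markers of settled neurons, such as Rbfox3 (NeuN) at 0.305, 0.179 and 0.103 CPM and the glutamate transporter Slc17a7 at 0, 0.0449 and 0.0684 CPM in ciNSLC, were scarce.

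Notch signalling keeps neural progenitors undifferentiated: ligands of the Delta family on a neighbour activate Notch receptors, and Hes and Hey repressors are the targets. Among 17 members tested, 6 were higher, 3 lower and 8 did not pass, beside 11.7% higher and 16.5% lower over all genes. The share called lower was thus near that of all genes. The median was 0.20 and ranged from -0.01 to 0.49 over the settings run. The ligand Dll1 rose to 10.6, 15 and 15.9 CPM, against 0.042 and 0.21 CPM in D0 (log2 change 6.79, SE 0.95, edgeR adjusted p = 0.000199), and Dll3 to 1.15, 1.21 and 2.39 CPM, against 0.084 and 0.0263 CPM. The ligand Jag1 fell to 13.8, 15.5 and 12.3 CPM, against 45.9 and 52.2 CPM (log2 change -1.82, SE 0.31, edgeR adjusted p = 0.000722). The receptor Notch1 rose to 159.9, 204 and 245 CPM, against 41 and 35.3 CPM (log2 change 2.41, SE 0.33, edgeR adjusted p = 0.00016), while Notch2 (120.4, 144 and 99.2 against 105 and 132 CPM) and Notch3 did not pass. Among the targets Hes5 and Nrarp (4.83, 5.03 and 2.6 against 0.294 and 0.499 CPM) were higher and Hes1 (24.2, 16.4 and 15.9 against 74 and 19.5 CPM) and Heyl lower, and the glycosyltransferase Lfng, which modifies Notch receptors, rose to 53, 43.6 and 37.2 CPM, against 1.95 and 6.25 CPM. Without D0 replicate 1, 3 members were higher and 1 lower, and Hes5, Lfng, Dll3, Hes1 and Heyl no longer passed. Dll3 also lost its call without D0 replicate 2 (adjusted p up to 0.12), Heyl without ciNSLC replicate 1 (up to 0.055), and Hes1 without ciNSLC replicate 2 or 3, with limma voom, in batch 2 alone and with the 5 libraries alone (up to 0.95).

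Hes5 is a direct Notch target in the mouse, and its promoter is printed because the gene changed with the ligand and receptor above. It covers chr4:154960673-154960972 on the plus strand of GRCm38.p6 (RefSeq), from 250 bases before to 50 after the gene's start. The letters GTGGGAA, the core of the RBPJ site, were searched on both strands, and matches are in capitals, the first of them on the minus strand.
Hes5 promoter: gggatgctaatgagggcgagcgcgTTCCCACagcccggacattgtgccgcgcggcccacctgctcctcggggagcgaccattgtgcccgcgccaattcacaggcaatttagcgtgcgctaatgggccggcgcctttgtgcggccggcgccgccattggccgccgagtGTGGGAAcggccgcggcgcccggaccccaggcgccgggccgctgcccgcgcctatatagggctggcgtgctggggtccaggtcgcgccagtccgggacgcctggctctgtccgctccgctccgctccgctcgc
The 2 matches begin 226 and 83 bases before the start. These letters were found in 3 of the 13 Notch list members with a promoter entry (Hes5, Hey2 and Lfng) and in 6.38% of 32851 promoters. Hey2, with 2 matches as well, stood at 1.27, 1.39 and 0.137 CPM in ciNSLC and 0.777 and 1.18 CPM in D0 and did not pass.

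Otx2, of forebrain and midbrain, was at 0.0469, 0 and 0.0342 CPM in ciNSLC and at 0 in D0, too low to be tested, beside 42.6 CPM in SCR029 and 32.6 CPM in priNPC. Of 18 forebrain regional factors 10 were tested. Of these, 2 were higher (Lhx2 among them), 3 lower (Emx2 and Dlx5 among them) and 5 not called. Emx2 did not pass with all 16 libraries in the fit (adjusted p = 0.074). Lhx2, also a general progenitor factor, had 37.4, 42.4 and 49.9 CPM in ciNSLC against 6.97 and 4.86 CPM in D0 (log2 change 2.87, SE 0.45, edgeR adjusted p = 0.000426), beside 23.3 CPM in SCR029 and 46.4 CPM in priNPC. Dlx5, which is also a skeletal factor, fell to 0.0234, 0 and 0 CPM, against 6.93 and 4.89 CPM (log2 change -8.77, SE 0.82, edgeR adjusted p = 9.93e-06). Among midbrain and hindbrain factors 2 of 10 tested were higher and 4 lower. For the forebrain list and this list alike, the shares over all genes tested were 11.7% higher and 16.5% lower. Gbx2, the factor on the hindbrain side of the midbrain-hindbrain border, rose to 7.38, 11 and 7.56 CPM, against 0.063 and 0.158 CPM in D0 (log2 change 6.28, SE 0.91, edgeR adjusted p = 0.000251), beside 6.07 CPM in SCR029 and 2.54 CPM in priNPC. En2 had 0.399, 0.628 and 1.85 CPM against 0.021 and 0.0263 CPM, a call lost without either D0 library (adjusted p from 0.0019 to 0.11). En1 fell to 0.774, 1.39 and 0.171 CPM, against 5.69 and 10.5 CPM, Lmx1b to 0.0234, 0 and 0 CPM, against 7.48 and 6.83 CPM. Lmx1a was called lower, but not in 7 of 13 alternatives, every fit with a library left out among them (adjusted p from 0.034 to 0.21).

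The Hox genes split by their place in the cluster. Of 36 tested, 7 were higher in ciNSLC and 17 lower, beside 11.7% higher and 16.5% lower over all genes tested. Among paralogue numbers 1 to 5, 5 of 14 tested were higher and 2 lower, with summed levels of 133, 132 and 132 CPM in ciNSLC against 45.4 and 34.8 CPM in D0. Among numbers 6 to 8, 2 of 8 were higher and 1 lower, and the sums were 53.3, 62.2 and 108 CPM against 78.5 and 108 CPM. At numbers 1 to 5 and 6 to 8 alike, the share called lower was under that of all genes. Among numbers 9 to 13, all 14 tested were lower, with a median log2 change of -8.04 and sums of 0.445, 0.494 and 4.86 CPM against 207 and 157 CPM. The summed anterior levels were thus higher in every ciNSLC library than in both D0 libraries, and the summed posterior levels were lower in every one. With the 5 libraries alone, 12 Hox genes in place of 17 were called lower, and with the batch term 19. Among numbers 9 to 13, Hoxb9, Hoxc9, Hoxc11, Hoxc13 and Hoxd9 lost their calls under some alternatives.

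The increases lay in HoxA, where Hoxa2 to Hoxa7 were all called higher, and in Hoxb5. Hoxa5, a gene of the posterior hindbrain and cervical cord (ENSMUSG00000038253, chromosome 6, 52151753 to 52154586 in mm9), had 64.1, 60 and 56 CPM in ciNSLC against 8 and 4.86 CPM in D0 (log2 change 3.22, SE 0.40, edgeR adjusted p = 7.32e-05), beside 14.7 CPM in SCR029 and 0.0242 CPM in priNPC. Hoxa2, the most anterior of the called genes, had 19.1, 22.6 and 27.8 CPM against 5.04 and 3.39 CPM (log2 change 2.46, SE 0.31, edgeR adjusted p = 8.17e-05), and Hoxa7 20.6, 31.7 and 39.1 CPM against 11.2 and 12.7 CPM (log2 change 1.35, SE 0.39, edgeR adjusted p = 0.0205). With all 16 libraries in the fit, where SCR029 and priNPC form a group of their own, 1 rather than 7 Hox genes was called higher, and Hoxa2 and Hoxa5 had adjusted p of 0.051 and 0.057. Without D0 replicate 2, 4 were higher. Hoxa7 did not pass without D0 replicate 1, D0 replicate 2 or ciNSLC replicate 3 either (adjusted p up to 0.40). The next gene along, Hoxa9, was at 0, 0.0449 and 0.342 CPM in ciNSLC against 12.6 and 3.92 CPM in D0 (log2 change -6.02, SE 0.90, edgeR adjusted p = 0.000318). Hoxa10 had 0.0703, 0.0449 and 0.0342 CPM against 38.3 and 17.3 CPM (log2 change -8.96, SE 0.51, edgeR adjusted p = 4.43e-07) and Hoxd13, a gene of digits and tail (ENSMUSG00000001819, chromosome 2, 74506367 to 74509656 in mm9), 0, 0.135 and 0.103 CPM against 78.9 and 73.1 CPM (log2 change -10.09, SE 0.76, edgeR adjusted p = 2e-06). Hoxd12 had no count in ciNSLC, at least 154-fold lower. In HoxB, Hoxb4 (8.13, 8.17 and 8.1 against 4.45 and 4.7 CPM) did not pass and Hoxb9 fell to 0.188, 0.0449 and 1.98 CPM, against 10.6 and 11.2 CPM, with an adjusted p of 0.055 in the 5 libraries alone. In HoxC and HoxD no gene was higher and 6 in each cluster were lower, among them Hoxc5 at 0.656, 0.449 and 0.479 CPM against 4.91 and 4.86 CPM. SCR029 held Hox transcripts too, 50.3 CPM in sum, of which 50.1 CPM were from HoxA, and priNPC held 0.459 CPM. Antisense transcripts lie within these clusters, and whether reads were counted by strand is not given in the sources used here.

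**Figure D2:**
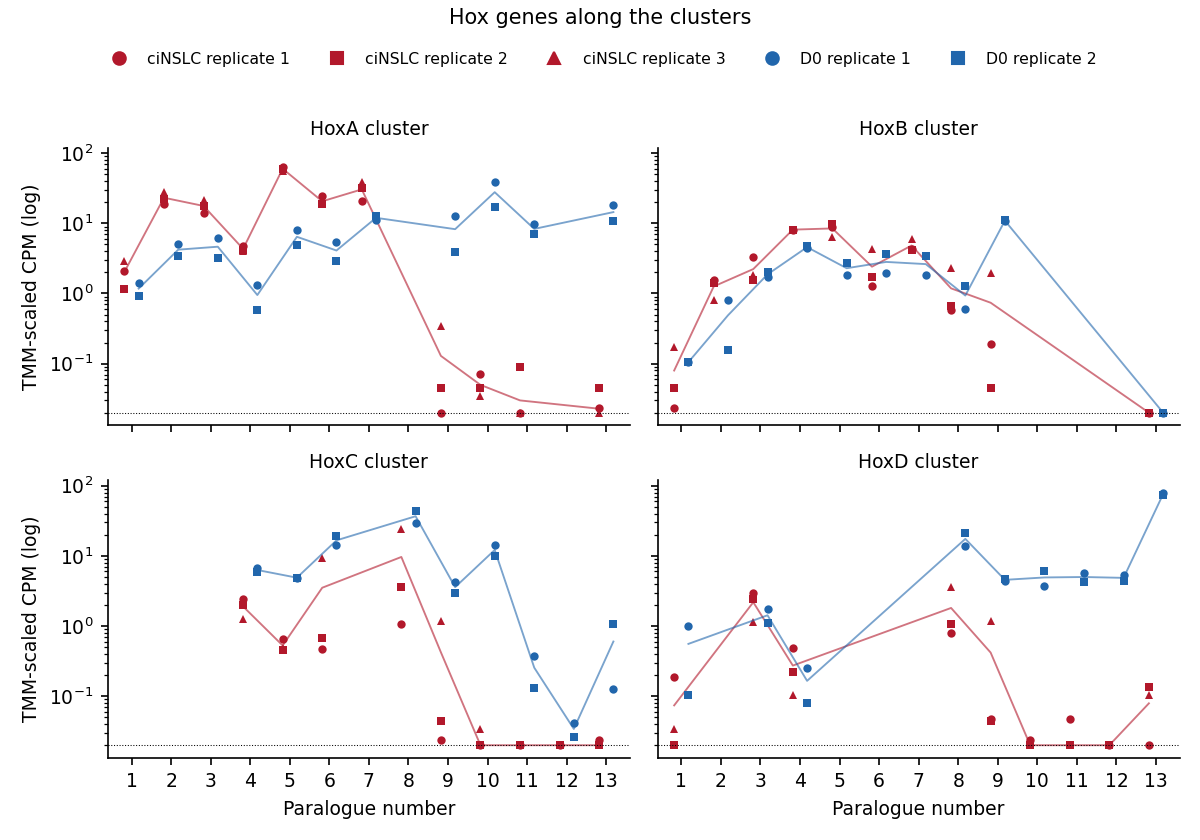
TMM-scaled CPM of 39 Hox genes on a log scale against their paralogue number, a panel for each cluster, with 3 ciNSLC libraries in red and 2 D0 libraries in blue. Lines join group means, and values under 0.02 CPM lie on the dotted line. In HoxA the ciNSLC libraries lie above D0 from Hoxa2 to Hoxa7 and below it from Hoxa9 on, and at numbers 9 to 13 every tested gene is lower in ciNSLC in all 4 clusters.

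The fibroblast matrix and surface genes were lower throughout. Of 26 tested, 25 fell and none rose, with a median log2 change of -7.02, and 24 or 25 fell when a library was left out. Their summed level was 476, 662 and 612 CPM in ciNSLC against 37820 and 50750 CPM in D0. In bulk RNA, fewer cells of a type and less RNA per cell cannot be told apart. Col1a1, the main chain of type I collagen (ENSMUSG00000001506, chromosome 11, 94797538 to 94814356 in mm9), had 2.67, 9.43 and 7.42 CPM in ciNSLC against 8901 and 9034 CPM in D0 (log2 change -10.43, SE 1.05, edgeR adjusted p = 1.75e-05), beside 3.05 CPM in SCR029 and 3.86 CPM in priNPC. Lox, which cross-links collagen, had 0.68, 1.48 and 1.16 CPM against 2414 and 2834 CPM (log2 change -11.23, SE 0.98, edgeR adjusted p = 6.59e-06), the matricellular protein periostin (Postn) 0.633, 3.37 and 5.61 CPM against 3216 and 6203 CPM (log2 change -10.53, SE 1.68, edgeR adjusted p = 0.000497) and Col6a3 0.516, 1.17 and 0.718 CPM against 719 and 473 CPM (log2 change -9.57, SE 0.64, edgeR adjusted p = 1.02e-06). The receptors Pdgfrb and Ddr2 fell as well, Pdgfrb to 0.0703, 0.269 and 0.137 CPM, against 192 and 196 CPM in D0 (log2 change -10.36, SE 0.59, edgeR adjusted p = 4.43e-07). S100a4 (Fsp1), whose promoter drives the Cre that marks these cells (ENSMUSG00000001020, chromosome 3, 90407692 to 90409967 in mm9), had 2.27, 1.53 and 0.342 CPM in ciNSLC against 172 and 206 CPM in D0 (log2 change -7.07, SE 0.66, edgeR adjusted p = 1.04e-05). Fibronectin (Fn1) fell to 90.1, 123 and 118 CPM in ciNSLC, against 3977 and 6226 CPM in D0. Fibrillin (Fbn1) fell to 66.6, 108 and 156 CPM in ciNSLC, against 1253 and 1319 CPM in D0, so both kept sizeable levels. Fbln2 was the member that did not pass, at 189, 291 and 59 CPM against 614 and 1153 CPM (log2 change -2.30, SE 0.84, edgeR adjusted p = 0.0584), and with the batch term or the replicate block all 26 were called lower. Thy1, a surface protein of fibroblasts and neurons (ENSMUSG00000032011, chromosome 9, 43851467 to 43856662 in mm9), had 4.27, 4.58 and 88.1 CPM in ciNSLC against 398 and 390.5 CPM in D0 (log2 change -3.61, SE 1.26, edgeR adjusted p = 0.0484), with ciNSLC replicate 3 well above the other two. It lost its call in 10 of 17 alternatives (adjusted p from 0.0023 to 0.14).

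Transcription factors of mesenchyme followed. Of 20 tested, 17 were lower and none higher, with a median of -4.35, and 16 to 18 were lower when a library was left out. Snai2, a repressor of epithelial genes, had 0.563, 0.853 and 0.65 CPM in ciNSLC against 103 and 103 CPM in D0 (log2 change -7.24, SE 0.34, edgeR adjusted p = 1.1e-07), Twist1 0.0234, 0.0449 and 0.445 CPM against 36.8 and 34.2 CPM, and Twist2 0, 0.0449 and 0 CPM against 10.9 and 11 CPM (log2 change -9.60, SE 0.53, edgeR adjusted p = 3.57e-07). The limb and skin factor Tbx15 had 0.258, 0.539 and 0.274 CPM against 149 and 151 CPM (log2 change -8.76, SE 0.61, edgeR adjusted p = 1.23e-06), the forelimb factor Tbx5 0.0234, 0.0449 and 0 CPM against 18.8 and 21.6 CPM, and the somite factor Meox1 0.234, 0.224 and 0.41 CPM against 31.3 and 31 CPM (log2 change -6.73, SE 0.53, edgeR adjusted p = 2.91e-06). Some factors kept a sizeable level. Prrx1 had 32, 29.6 and 119 CPM in ciNSLC against 762 and 585 CPM in D0, beside 69.2 CPM in SCR029, and Runx1 28.2, 36.5 and 55.6 CPM against 188 and 163 CPM. Zeb2, which neural progenitors also use, did not pass, at 154, 199.7 and 146 CPM against 178 and 285 CPM. Tbx18 did not pass either, with 4.36, 3.19 and 40 CPM in ciNSLC and 21.1 and 10.3 CPM in D0, groups that overlap because of ciNSLC replicate 3.

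**Figure D3:**
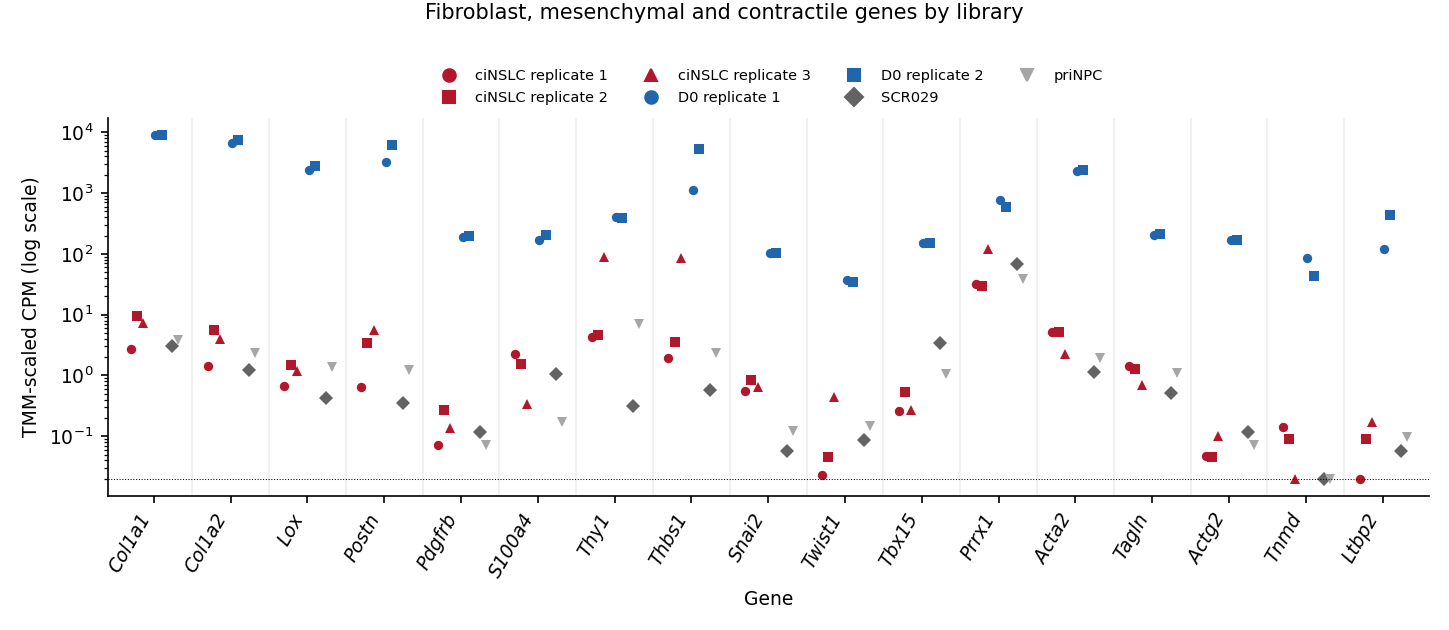
Levels of 17 fibroblast, mesenchymal, contractile and related genes in each library, as TMM-scaled CPM on a log scale, with ciNSLC in red, D0 in blue and the SCR029 and priNPC libraries in grey. Values under 0.02 CPM are drawn on the dotted line. D0 lies highest for every gene shown, and for Thy1 and Thbs1 ciNSLC replicate 3 stands above the other ciNSLC libraries.

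Contractile genes are driven in smooth muscle and activated fibroblasts by serum response factor (Srf) with myocardin-family partners, which bind the CArG box. Of 16 tested, 15 fell and Srf itself did not pass (13.7, 18.1 and 30.7 against 24.3 and 27.5 CPM, log2 change -0.31, SE 0.28, edgeR adjusted p = 0.459). The median was -4.76, and 13 to 16 were lower when a library was left out. Smooth muscle actin Acta2 (ENSMUSG00000035783, chromosome 19, 34315580 to 34329826 in mm9) had 5.13, 5.16 and 2.22 CPM in ciNSLC against 2326 and 2378 CPM in D0 (log2 change -9.14, SE 0.63, edgeR adjusted p = 1.22e-06), the intestinal form Actg2 0.0469, 0.0449 and 0.103 CPM against 171 and 172 CPM, transgelin (Tagln) 1.41, 1.26 and 0.684 CPM against 200.5 and 212 CPM (log2 change -7.52, SE 0.49, edgeR adjusted p = 8.92e-07), and beta-tropomyosin (Tpm2) 1.31, 2.15 and 1.23 CPM against 345 and 460.4 CPM (log2 change -8.02, SE 0.48, edgeR adjusted p = 5.47e-07). Actins are alike in coding sequence, so reads may be shared among them. The partner Myocd fell to 0.0234, 0.0449 and 0.0342 CPM, against 2.18 and 2.52 CPM. Members with duties in all cells fell by less, as vinculin (Vcl) at 115, 111 and 92.8 against 286 and 262 CPM (log2 change -1.37, SE 0.35, edgeR adjusted p = 0.0106), which did not pass without D0 replicate 1 (adjusted p = 0.058).

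Because these genes moved together, their promoters were searched for the CArG box on both strands, from 250 bases before to 50 after the start (RefSeq, GRCm38.p6). Only exact matches were counted, so a box with a substituted base would be missed. It was present in 4 of the 12 members with a promoter entry (Myl9, Cnn2, Vcl and Srf) and in 1.63% of 32851 promoters. The matches are in capitals. Myl9, the regulatory light chain of smooth muscle myosin, fell to 7.69, 5.66 and 11.5 CPM, against 215 and 278 CPM in D0 (log2 change -4.89, SE 0.55, edgeR adjusted p = 3.79e-05). Its promoter covers chr2:156775214-156775513 on the plus strand and is shown whole, and the stretches around the box in Cnn2 (chromosome 10, promoter 79988350 to 79988649, plus strand) and Vcl (chromosome 14, promoter 20929148 to 20929447, plus strand) with 15 bases on either side.
Myl9 promoter: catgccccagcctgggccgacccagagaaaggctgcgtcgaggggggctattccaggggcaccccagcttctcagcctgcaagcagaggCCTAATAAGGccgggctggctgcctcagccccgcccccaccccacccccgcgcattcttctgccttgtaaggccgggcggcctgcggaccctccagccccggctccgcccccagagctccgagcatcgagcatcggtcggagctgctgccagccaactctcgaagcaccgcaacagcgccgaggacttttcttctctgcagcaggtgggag
Cnn2 window: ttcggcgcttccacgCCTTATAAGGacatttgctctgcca
Vcl window: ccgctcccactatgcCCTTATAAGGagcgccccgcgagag
The boxes begin 161, 56 and 227 bases before the start of Myl9, Cnn2 and Vcl. Calponin Cnn2 fell to 6.99, 12.9 and 31.3 CPM, against 348 and 402 CPM in D0. Cnn1 and Acta2, which fell by more, have no exact match within these 300 bases.

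Cartilage, tendon and bone genes were lower in 9 of 11 tested and higher in 1. The tendon protein Tnmd had 0.141, 0.0898 and 0 CPM in ciNSLC against 86.8 and 43.1 CPM in D0 (log2 change -9.57, SE 0.78, edgeR adjusted p = 3.91e-06), fibromodulin (Fmod) 1.08, 0.808 and 0.274 CPM against 106 and 252 CPM (log2 change -7.93, SE 0.81, edgeR adjusted p = 1.86e-05) and cartilage collagen Col2a1 0.305, 0.763 and 0.376 CPM against 12.5 and 55.3 CPM. The exception was Alpl, the tissue-nonspecific alkaline phosphatase that neural progenitors express too, at 23.9, 23.6 and 17 CPM against 2.56 and 0.604 CPM (log2 change 3.76, SE 1.17, edgeR adjusted p = 0.0297). Its call was lost without either D0 library, among other settings (adjusted p from 0.00027 to 0.18).

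Targets of the signalling pathways that M9 addresses differed in direction. Of 12 TGF-beta and Yap targets, 11 were lower and none higher (median -3.80). The inhibitory Smad7, induced by TGF-beta, had 1.59, 1.84 and 1.47 CPM in ciNSLC against 18.6 and 16.1 CPM in D0 (log2 change -3.41, SE 0.32, edgeR adjusted p = 1.02e-05) and the latent TGF-beta binding protein Ltbp2 0, 0.0898 and 0.171 CPM against 121 and 440.3 CPM. Of the Yap targets, Ctgf fell to 12, 9.07 and 16.2 CPM, against 76.1 and 146 CPM in D0, and Cyr61 to 40.8, 42.5 and 18.2 CPM, against 425 and 222 CPM in D0, and Ctgf had an adjusted p of 0.051 without D0 replicate 2. Among BMP targets 4 of 11 were lower and none higher (median -1.59), with Smad6 at 0.281, 0.179 and 0.0684 CPM against 7.73 and 10.5 CPM (log2 change -5.62, SE 0.59, edgeR adjusted p = 2.2e-05) and Msx2 at 0.469, 0.808 and 0.171 CPM against 5.86 and 5.36 CPM. Of the Id genes Id1 fell (7.29, 4.13 and 4.99 against 15.2 and 14 CPM), and Id2 and Id3 did not pass.

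Wnt targets were mixed, with 3 of 11 higher and 1 lower (median log2 change 0.79), beside 11.7% higher and 16.5% lower over all genes. The median was -0.13 without D0 replicate 1, 1.88 without D0 replicate 2, -0.07 without ciNSLC replicate 3 and 0.03 with the replicate block. Axin2, a feedback inhibitor induced by beta-catenin, rose to 19.3, 25 and 50 CPM, against 2.48 and 4.28 CPM in D0 (log2 change 3.22, SE 0.58, edgeR adjusted p = 0.00116), Tcf7 to 27.6, 32.9 and 22.3 CPM, against 2.6 and 1.39 CPM (log2 change 3.78, SE 0.34, edgeR adjusted p = 8.38e-06), and the receptor ligase Znrf3 to 65.6, 100.1 and 76.7 CPM, against 11.9 and 19 CPM. Lgr5 did not pass and varied in both groups, at 16.7, 17 and 99.8 CPM in ciNSLC and 25.3 and 244 CPM in D0. Of 10 Hedgehog genes 1 was higher and 3 lower, beside 11.7% higher and 16.5% lower over all genes, and the counts ranged from 0 to 2 and from 1 to 4 over the settings run. Ptch1, receptor and target at once, had 110.3, 136 and 127 CPM against 24.3 and 19 CPM (log2 change 2.52, SE 0.86, edgeR adjusted p = 0.0441) in groups that do not overlap, but lost its call in 7 of 17 alternatives (adjusted p from 0.00013 to 0.20). Gli1, the most direct target, was at 0, 0.0898 and 0 CPM in ciNSLC and 2.21 and 0.184 CPM in D0 and did not pass (log2 change -5.59, SE 2.06, edgeR adjusted p = 0.0603), and Gli2 (7.03, 8.75 and 8 against 48.7 and 31.7 CPM) and Gli3 (49.1, 44.7 and 58.1 against 149 and 116 CPM) were called lower. Without D0 replicate 1 neither passed (adjusted p of 0.069 for Gli2 and 0.062 for Gli3).

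Retinoic acid genes were lower in 6 of 11 and higher in none (median -2.22). They were the binding proteins Crabp1 (0.868, 0.359 and 0.547 CPM in ciNSLC against 433 and 56.6 CPM in D0, log2 change -8.64, SE 1.19, edgeR adjusted p = 0.000169) and Crabp2 (0, 0.135 and 0.0342 against 47.5 and 18 CPM), the degrading enzyme Cyp26b1, the reductase Dhrs3 (0.188, 0.494 and 0.171 against 14.1 and 61.1 CPM) and the receptors Rara and Rarg (1.29, 1.35 and 2.53 against 32 and 26.2 CPM). The receptor Rarb, itself induced by retinoic acid, had 12.5, 9.83 and 2.91 CPM against 2.79 and 1.66 CPM and did not pass (log2 change 1.92, SE 0.69, edgeR adjusted p = 0.0543), and Stra6, the retinol receptor, had 0.211, 0.449 and 0.171 CPM against 0.819 and 0.631 CPM.

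FGF/ERK feedback genes rose: 11 of 15 were higher and none lower, with a median of 1.98, and 7 to 11 were higher when a library was left out. Etv1, a transcription factor induced by FGF, had 168, 243 and 263 CPM in ciNSLC, against 3.55 and 11.9 CPM in D0 (log2 change 4.86, SE 0.49, edgeR adjusted p = 1.73e-05). Etv5, of the same family, had 552, 494 and 924 CPM in ciNSLC, against 16.4 and 37.6 CPM in D0 (log2 change 4.61, SE 0.80, edgeR adjusted p = 0.000879). The ERK phosphatase Dusp6 had 152, 138 and 319 CPM against 10.9 and 12.8 CPM and the inhibitor Spry4 131, 144 and 514 CPM against 12.4 and 11.3 CPM. In both, ciNSLC replicate 3 was the highest, and neither passed without D0 replicate 1 or D0 replicate 2 (adjusted p up to 0.074 for Dusp6 and 0.067 for Spry4). Spry2 rose to 157, 151 and 165 CPM, against 39.4 and 27.9 CPM (log2 change 2.23, SE 0.36, edgeR adjusted p = 0.000561), Spred2 to 106, 156 and 132 CPM, against 33.5 and 47.6 CPM, and Phlda1 to 57.5, 50.9 and 89.3 CPM, against 21.9 and 11.6 CPM (log2 change 1.98, SE 0.31, edgeR adjusted p = 0.000437). The immediate early gene Egr1 did not pass, and its D0 libraries differed widely (694, 650.0 and 461 CPM in ciNSLC and 1613 and 136 CPM in D0).

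**Figure D4:**
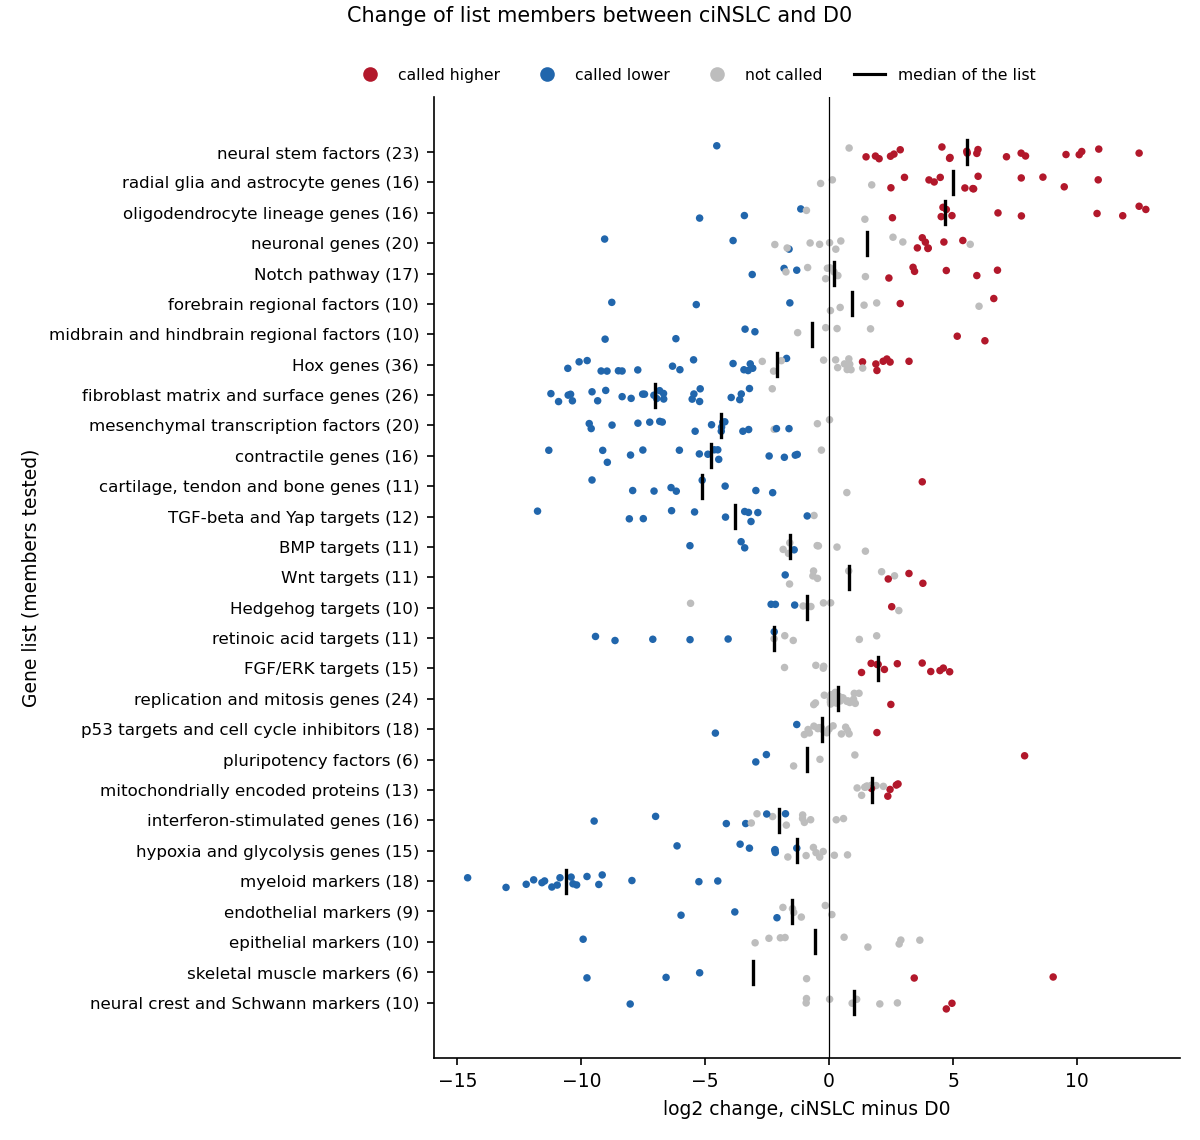
The log2 change, ciNSLC minus D0, of each tested member of 29 gene lists, with members called higher in red, called lower in blue and not called in grey, and the median of each list as a black bar. Neural stem, glial and FGF/ERK members lie mostly to the right of 0, fibroblast, mesenchymal, contractile and TGF-beta members to the left, and replication and mitosis genes close to 0. Fitted values of genes at 0 in a group depend on the prior count.

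Few proliferation genes were called. Of 24 replication and mitosis genes 1 was called higher and none lower, a share under the 28.2% of all genes, with a median log2 change of 0.34 and up to 8 higher under other settings. Mki67 had 349, 457 and 483 CPM in ciNSLC and 475 and 510.1 CPM in D0, and Pcna 212, 207 and 216 CPM and 75.7 and 108 CPM (log2 change 1.20, SE 0.49, edgeR adjusted p = 0.0869). A p that misses the threshold does not show equal levels. Summed over the list, levels were 3890, 4302 and 4220 CPM in ciNSLC against 2130 and 3070 CPM in D0. Without overlap of the groups, 11 members were higher in ciNSLC and 1 lower, beside 24.1% and 29.2% over all genes tested. Ccnd1, the cyclin that growth factors induce, was the gene called, at 1049, 1253 and 1195 CPM against 79.2 and 336 CPM (log2 change 2.49, SE 0.66, edgeR adjusted p = 0.013), and did not pass without D0 replicate 1 (adjusted p = 0.10). Among 18 p53 targets and cell cycle inhibitors 1 was higher and 2 lower, 3 calls in all and again a share under the 28.2% of all genes. Cdkn2a, the Ink4a/Arf locus (ENSMUSG00000044303, chromosome 4, 88920377 to 88940557 in mm9), had 3.12, 1.84 and 4.04 CPM in ciNSLC against 0.966 and 0.604 CPM in D0 (log2 change 1.93, SE 0.43, edgeR adjusted p = 0.00489) and lost its call without D0 replicate 2 (adjusted p = 0.06). The imprinted inhibitor Cdkn1c fell to 0.188, 1.26 and 4.86 CPM, against 47.4 and 53.3 CPM (log2 change -4.59, SE 0.93, edgeR adjusted p = 0.00259), and Cdkn2b to 13.8, 9.38 and 8.14 CPM, against 29 and 22.9 CPM. Cdkn1a (p21) did not pass, at 503, 298 and 412 CPM and 387 and 600.3 CPM.

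Pluripotency factors were close to absent. Of 14, 8 were too low to be tested, among them Pou5f1 (Oct4) at 0.0938, 0.0449 and 0 CPM in ciNSLC and 0.294 and 0 CPM in D0. Esrrb was called higher at 0.774, 0.808 and 0.718 CPM in ciNSLC against 0 in D0, a call that every leave-one-out fit ended. Klf4 (7.15, 8.26 and 3.15 against 51.9 and 44.4 CPM, log2 change -2.96, SE 0.43, edgeR adjusted p = 0.00024) and Tbx3 (4.67, 4.58 and 2.39 against 26.2 and 18.7 CPM), which fibroblasts express as well, fell. Of the 13 mitochondrially encoded proteins 5 were called higher and none lower (median 1.71), as mt-Nd2 at 1636, 3440 and 1616 CPM against 390.1 and 292 CPM (log2 change 2.71, SE 0.56, edgeR adjusted p = 0.00311). The count was 2 without D0 replicate 2, 3 without D0 replicate 1, 8 with DESeq2, the batch term, the replicate block or the 5 libraries alone, and 9 in batch 2 alone. They moved with the share of mitochondrial rRNA given above, and the part of library preparation in this was not tested.

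Interferon-stimulated and hypoxia genes were lower in part. Of 16 interferon-stimulated genes 6 were called lower and none higher, but only 1 without D0 replicate 2, the library with high myeloid markers. Oas2, an antiviral synthetase, had no count in ciNSLC and 0.147 and 4.52 CPM in D0, a call lost without D0 replicate 2 and with limma voom (adjusted p up to 0.20). Ddx58 (RIG-I), with 14.6, 18 and 15.2 CPM in ciNSLC against 48.6 and 59.7 CPM in D0 (log2 change -1.76, SE 0.32, edgeR adjusted p = 0.00129), was similar in both D0 libraries. Of 15 hypoxia and glycolysis genes 7 were lower and none higher, and 4 were lower without D0 replicate 1. Vegfa had 12.7, 17.2 and 14.3 CPM against 92 and 42.6 CPM (log2 change -2.19, SE 0.56, edgeR adjusted p = 0.0106), and did not pass without D0 replicate 1 (adjusted p = 0.13). The collagen hydroxylase P4ha1 had 46.2, 44.9 and 35.6 CPM against 207 and 178 CPM (log2 change -2.19, SE 0.55, edgeR adjusted p = 0.00907) and Ndrg1 0.656, 0.583 and 3.73 CPM against 17.9 and 12.9 CPM. The glycolytic enzymes Ldha, Pgk1, Eno1 and Aldoa did not pass.

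Markers of other cell types were examined for what else the libraries hold. Their counts stand beside 11.7% called higher and 16.5% called lower over all genes tested. All 18 myeloid markers were called lower in ciNSLC. Lyz2, the lysozyme of macrophages (ENSMUSG00000069516, chromosome 10, 116714390 to 116719377 in mm9), had 0.399, 0.808 and 0.616 CPM in ciNSLC against 5.63 and 2392 CPM in D0 (log2 change -10.97, SE 1.76, edgeR adjusted p = 0.000509), and the receptor Csf1r 0.0703, 0.135 and 0.308 CPM against 0.84 and 210.4 CPM. Without D0 replicate 2, 8 were still called, and with limma voom none (Csf1r had adjusted p up to 0.18). Over all tested genes, 398 were higher in D0 replicate 2 than in D0 replicate 1 by 4 or more on the log2 scale, and 207 of them were called lower in ciNSLC. Leaving this library out gave 2046 lower genes in place of 2877. Endothelial markers were lower in 3 of 9 (Erg, Flt1 and Kdr) while Pecam1, Tie1 and Cldn5 were at or near 0 in every library. Erg had 0.211, 1.03 and 0.513 CPM against 36.7 and 34.6 CPM (log2 change -5.98, SE 1.11, edgeR adjusted p = 0.00144), and Kdr did not pass without D0 replicate 2, ciNSLC replicate 1 or ciNSLC replicate 2 (adjusted p up to 0.11). Of 10 epithelial markers Krt19 was the only one called, at 0 in ciNSLC against 4.35 and 1.97 CPM, at least 103-fold lower. Under 6 alternatives 1 member was called higher, and 2 were lower without ciNSLC replicate 3. Among skeletal muscle markers 2 of 6 were higher and 3 lower, with the defining factors Myod1, Myf5, Myog and Myf6 at or near 0 in both groups. Without D0 replicate 1 none of them was higher, and without ciNSLC replicate 1 only 1 was lower. Of 10 neural crest and Schwann markers 2 were higher (Sox10 among them, also on the oligodendrocyte list, whose call depends on the setting as given there) and 1 lower (Tcfap2b, 0.0234, 0.0449 and 0.0342 against 14.9 and 3.57 CPM), and Foxd3 had no count in either group.

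The ciNSLC libraries differed among themselves. Across genes averaging at least 1 CPM in ciNSLC, the median absolute log2 difference was 0.291 between replicates 1 and 2, 0.392 between 1 and 3, and 0.360 between 2 and 3, although replicates 2 and 3 share a batch. Between the 2 D0 libraries it was 0.387 over genes averaging at least 1 CPM there. Of 8348 genes with at least 10 CPM in a ciNSLC library, 37 were at least 4 times higher and 131 at least 4 times lower in replicate 3 than in both others. For replicate 1 these numbers were 8 and 0, and for replicate 2 they were 0 and 7. There is no replicate of either kind, so the following are values with no test, for genes named after their values were seen.

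Replicate 3 held less of the astrocyte genes. Gfap was at 16.5, 14.9 and 0.0684 CPM in replicates 1, 2 and 3, Slc1a2 at 559, 575 and 57.4 CPM, Aldh1l1 at 77.2, 77.1 and 8.55 CPM and clusterin (Clu) at 52.3, 39.8 and 2.43 CPM. The ventral neural tube factor Nkx6-1 was at 16.9, 25 and 0.0342 CPM and the growth cone protein Gap43 at 65.7, 93.7 and 3.42 CPM. It held more of Pax7, a factor of dorsal neural tube and muscle stem cells, at 0.399, 0.179 and 41.4 CPM, and of Pax3 at 0.0234, 0 and 4.1 CPM. Pax7 was at 0.021 and 0.0263 CPM in D0, and its call as higher (log2 change 9.04, SE 2.63, edgeR adjusted p = 0.021) was lost without replicate 3. Thy1 (4.27, 4.58 and 88.1 CPM), thrombospondin Thbs1 (1.92, 3.5 and 86.9 CPM), Tbx18 (4.36, 3.19 and 40 CPM), Hoxc6 (0.469, 0.673 and 9.4 CPM) and Hoxc8 (1.05, 3.59 and 24.3 CPM) also stood highest in it. D0 had 1127 and 5204 CPM of Thbs1, 14.3 and 19 CPM of Hoxc6 and 29.5 and 44 CPM of Hoxc8. Genes such as Sox2, Olig1, Olig2, Nkx2-2 and Hoxa5 were alike in all 3. The Y-linked and Xist values given above set replicate 3 apart from replicates 1 and 2 as well, and the labels do not say whether its origin or its time in culture differed.

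**Figure D5:**
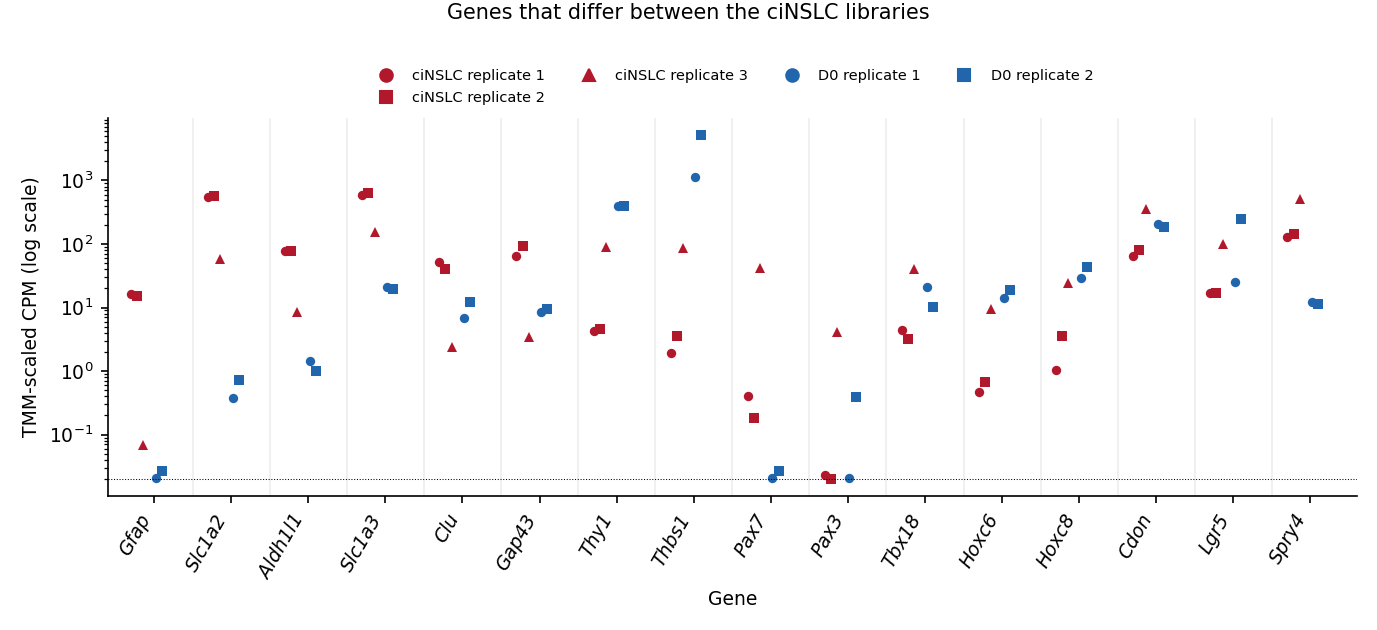
TMM-scaled CPM on a log scale of 16 genes that vary among the ciNSLC libraries, with the 3 ciNSLC libraries in red and the 2 D0 libraries in blue. Values under 0.02 CPM lie on the dotted line. The triangle, ciNSLC replicate 3, is the lowest ciNSLC library for the first 6 genes and the highest for the other 10.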

How the data were processed

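RNA was measured by paired-end RNA-seq of 16 mouse libraries, amplified with a kit that primes with random and poly-T primers, per the labels' protocols. The deposited table holds raw counts per gene made by the authors, and the submitters' processing notes name TopHat2 2.0.13, featureCounts, Subread, edgeR and the mouse build mm9. Of the table's per-sample columns 48 were not used. Whether counting used strand is not given in the sources used here. Rows with no symbol, 0.0349% to 0.151% of counts, were treated like all other rows in the filter, the library sizes and the tests.

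The 14 libraries of D0, days 4, 8 and 12 and ciNSLC were fitted together with edgeR 4.0.16 in R 4.3.3 (TMM scaling, filterByExpr, group as the term, robust quasi-likelihood F-test, Benjamini-Hochberg adjustment over 17455 genes, called under an adjusted p of 0.05), so that both D0 libraries share an estimate of the spread with the others. Standard errors are the log2 change divided by the square root of F. The procedure was tested on simulated data. Where a group has no count, a fold is a bound against 3 counts over the group. Alternatives used DESeq2 1.42.0 and limma 3.58.1, other scalings, filters and sample sets, a batch term, a replicate block, batch 2 alone and each library left out.

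The members, the 29 gene lists and the alternatives were chosen with earlier results of these data known. Genes named are the 10 highest and 10 lowest called changes without overlap at a mean of at least 10 CPM in the higher group and with a known gene's symbol, up to 4 called members of each list by lowest p, up to 2 called members against its direction, and a fixed panel. Other list members and the genes of single libraries were named after their values were seen. Sox1 was the 1 of 484 list symbols that was not matched, and some older symbols were added after the table was read. Some list members are counted with their list and are not reported here by name.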

Additional observations from a re-analysis of the deposited data

How the results depend on the processing

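None of the genes chosen by the naming rule changed direction under the alternatives run, but the medians of the Notch, Wnt, forebrain, epithelial, skeletal muscle and neural crest lists changed sign under at least 1 of them. Of 258 called list members, 165 kept the call in every refit in which they were tested, and 80 lost it when a library was left out. The 2048 genes called higher became 1205 without D0 replicate 1. When a library was left out, the calls numbered 3426 to 4512 in either direction, 1205 to 2020 higher and 2046 to 2492 lower. Under the other settings they were 4252 to 6403, 1763 to 2759 and 2342 to 3644, with 5736 calls by DESeq2 and 4573 by limma voom. Whether replicate numbers pair the samples could not be decided. In batch 1 every library has number 1, and the deviations of the 2 D0 libraries from their mean mirror each other. Deviations of libraries with the same number correlated at -0.002 to 0.655. Those of the same batch with different numbers correlated at -0.018 to 0.527. The replicate block gave 5875 calls and the batch term 6403. With 2 D0 libraries, each D0 value rests on few samples, and the lone library in a fit that leaves one out is assumed to vary like the other groups.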
